A study of Mus musculus with 12 samples.

Results

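The comparison described here set mouse neural stem cells expressing the K27M form of histone H3.3 against the same kind of cells expressing wild-type H3.3, with both genotypes under the EZH2 inhibitor EPZ6438. Its members are the 13908 genes listed in the deposited table for this pair of groups, of 14610 genes listed in any table of the series. Of these, 13060 had enough counts to be tested and 848 had not.

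The tested cells were PDGF neural stem cells carrying K27M H3.3 and treated with 3 µM EPZ6438 for 12 days (3 libraries). They were set against PDGF neural stem cells carrying wild-type H3.3 (label H3WT) under the same dose and time (3 libraries). K27M cells in DMSO and wild-type cells in DMSO, the solvent, for 12 days (3 libraries each) serve here only to place the same genotype difference without the inhibitor. All 4 groups grew on poly-D-lysine and laminin in neural stem cell medium with EGF and bFGF, so every group had the growth factors that activate ERK signalling in addition to the PDGF of its name. The series describes the cells as a mouse model of diffuse intrinsic pontine glioma. The strain, the promoter that drives H3.3 or PDGF, and whether each genotype is 1 clone or a pool are not stated in the labels used here. Nor do the labels say that the numbered replicates came from separate cultures, so the p-values cover the spread between these libraries, which may be technical. Polyadenylated RNA was sequenced, and gene levels are normalised counts in CPM, that is, scaled to a common library size. The K27M inhibitor libraries held 14557921, 12392775 and 10871075 estimated counts and the wild-type inhibitor libraries 7902281, 13556329 and 8708965.

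EZH2 is the catalytic subunit of Polycomb repressive complex 2 (PRC2), which methylates lysine 27 of histone H3 and keeps developmental genes such as the Hox genes and the cell cycle inhibitor gene Cdkn2a silent. In the K27M histone this lysine is replaced by methionine, and cells with the mutant histone lose the methyl mark over much of the genome while keeping it at some sites. EPZ6438 blocks the enzyme itself, and the methyl mark was not analysed here. The question of the comparison is which expression differences between the genotypes are found when the enzyme is inhibited in both.

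Under the inhibitor the genotypes differed in few genes and by small amounts, and the genes that did differ were mostly lower in K27M cells. The genes lower in K27M cells included genes of astrocytes: the GABA transporter gene Slc6a11 was 1.79-fold lower, the intermediate filament gene Gfap 1.73-fold lower and the glycolytic gene Aldoc 1.49-fold lower, together with Hes5, a transcriptional repressor induced by Notch (1.79-fold lower). The PRC2 target Cdkn2a and the Hox gene Hoxa5, which differed 4.19-fold and 6.90-fold between the genotypes in DMSO, had close levels in both genotypes under the inhibitor. By edgeR's quasi-likelihood test with Benjamini-Hochberg adjustment, 234 of 13060 genes (1.79%) passed at an adjusted p below 0.05. Of these, 74 rose (0.567% of the tested genes) and 160 fell (1.23%). At least a 2-fold change was fitted for 16 of them, 9 higher and 7 lower in K27M cells. The changes were otherwise modest, since 178 of the 234 were under 1.5-fold and the median fold was 1.32. In all 234 genes the 3 K27M libraries did not overlap the 3 wild-type libraries, as was so for 3071 of all 13060 tested genes (23.5%). The median log2 fold change of all tested genes was 0.01, and for 9977 genes (76.4%) the 95% interval of the fold change lay within 1.5-fold in either direction.

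The number of calls depended on single libraries. Without K27M inhibitor replicate 1, 2 or 3, the calls numbered 32, 31 and 17, and without wild-type inhibitor replicate 1, 2 or 3 they numbered 123, 195 and 30. The following 15 genes were called in every one of them, all lower in K27M cells: Vit, Tmem132c, Slc6a11, Hes5, Mmd2, Gfap, Apcdd1, Ttyh1, Ndrg2, Kcnj10, Pla2g7, Aldoc, Adcyap1r1, Btg2 and Lrrn1. With the trend of fold change on GC content removed, 719 genes were called, 305 higher and 414 lower, and 231 of the 234 were among them.

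**Figure D1:**
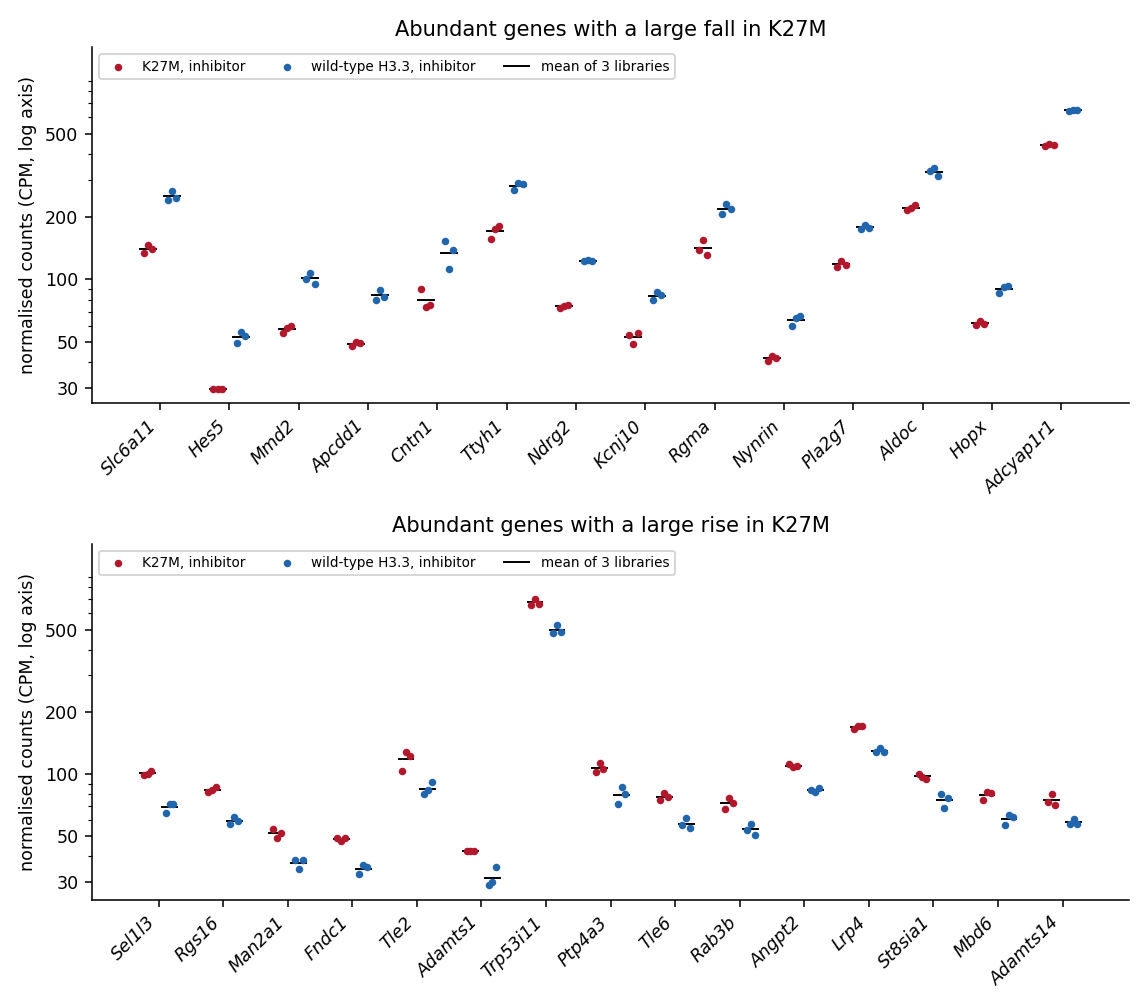
Normalised counts (CPM, log axis) per library for called genes with large falls (upper panel) and large rises (lower panel) among genes at or above the median abundance, K27M inhibitor libraries (red) left of wild-type inhibitor libraries (blue); bars are means of 3 libraries. The 3 libraries of each genotype sit close together and do not overlap those of the other genotype for any gene shown.

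4 genes carry much of what follows, and the 250 bases upstream of their start sites are shown because they differ in CpG content, the feature that marks many PRC2-bound promoters. The windows are RefSeq sequences of build GRCm38.p6, printed 5′ to 3′ along the gene's strand with CpG dinucleotides in capitals. Slc6a11 is at chr6:114130991-114131240 (plus strand), Hes5 at chr4:154960673-154960922 (plus strand), Gfap at chr11:102897201-102897450 (minus strand) and the upstream start of Cdkn2a, that of its Arf transcript, at chr4:89294620-89294869 (minus strand).
Slc6a11: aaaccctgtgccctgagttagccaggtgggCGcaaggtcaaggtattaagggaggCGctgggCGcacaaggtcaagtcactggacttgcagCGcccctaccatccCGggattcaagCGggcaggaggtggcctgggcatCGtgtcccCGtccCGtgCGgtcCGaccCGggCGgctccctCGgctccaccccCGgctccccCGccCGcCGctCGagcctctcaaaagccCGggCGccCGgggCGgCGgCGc
Hes5: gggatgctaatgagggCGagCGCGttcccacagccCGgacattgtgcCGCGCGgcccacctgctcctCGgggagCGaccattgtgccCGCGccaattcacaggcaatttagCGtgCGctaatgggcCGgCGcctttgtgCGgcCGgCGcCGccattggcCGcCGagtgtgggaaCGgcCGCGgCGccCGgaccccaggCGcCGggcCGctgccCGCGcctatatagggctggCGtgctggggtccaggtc
Gfap: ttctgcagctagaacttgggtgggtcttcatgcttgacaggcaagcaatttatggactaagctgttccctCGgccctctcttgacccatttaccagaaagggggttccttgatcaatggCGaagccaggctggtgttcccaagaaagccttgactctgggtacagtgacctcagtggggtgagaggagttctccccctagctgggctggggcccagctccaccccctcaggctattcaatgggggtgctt
Cdkn2a: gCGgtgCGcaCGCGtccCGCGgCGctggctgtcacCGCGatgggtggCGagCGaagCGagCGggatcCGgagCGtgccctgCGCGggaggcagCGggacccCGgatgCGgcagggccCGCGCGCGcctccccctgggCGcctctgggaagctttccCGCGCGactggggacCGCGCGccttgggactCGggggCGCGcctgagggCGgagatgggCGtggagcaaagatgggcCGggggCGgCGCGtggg
The windows held 25 CpG in Slc6a11, 32 in Hes5, 2 in Gfap and 40 in Cdkn2a, against a median of 6 over 32851 RefSeq windows of the same length. A count at least as high was found in 10.7% of windows for Slc6a11, 4.58% for Hes5, 81.2% for Gfap and 1.31% for Cdkn2a. The window of the downstream start of Cdkn2a, at chr4:89282193-89282442, held 7 CpG, a count reached by 46.3% of windows. The core motif of the Notch effector RBPJ, TGGGAA, searched on both strands, matched at 2 places in the Hes5 window, 1 in Gfap, 1 in Cdkn2a and none in Slc6a11. At least 1 match occurs in 21.6% of windows and 2 or more in 2.77%. Of the genes that fell in K27M cells, Hes5 and Slc6a11 thus had counts well above the median and Gfap a count below it.

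Genes of astrocytes were lower in K27M cells. Slc6a11, which takes up GABA in astrocytes, had 134, 146 and 140 CPM in K27M cells, against 240, 266 and 246 CPM in wild-type cells. Its log2 fold change was -0.84 ± 0.06 (SE, adjusted p = 0.00123). Every K27M library lay far below every wild-type library, with little spread inside either genotype. Gfap, the intermediate filament that marks astrocytes, had 23.4, 27.7 and 27.7 CPM in K27M cells, against 47, 44.5 and 44.4 CPM in wild-type cells (log2 fold change -0.79 ± 0.08, adjusted p = 0.00653). Aldoc, the aldolase of astrocytes, had 215, 220 and 229 CPM in K27M cells, against 332, 342 and 312 CPM in wild-type cells (log2 fold change -0.57 ± 0.05, adjusted p = 0.00261). For both genes the genotypes were again clearly apart.

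Of the 15 tested members of a list of 16 astrocyte markers, 6 fell and none rose, where 1.23% of all tested genes fell. The 6 were Gfap, Aldoc, Slc1a2, Clu, S100b and Glul, with log2 fold changes between -0.79 and -0.29. Slc1a2 and Glul handle glutamate, the first as its transporter and the second as the glutamine synthetase that converts it. The list's median log2 fold change was -0.25, against 0.01 over all tested genes, and 14 of 15 members were below 0. At an unadjusted p below 0.05, 11 of the 15 were lower, against 9.4% of all tested genes, and none was higher, against 7.27%. The glutamate transporter gene Slc1a3, the most abundant member, had 1685, 1656 and 1719 CPM in K27M cells, against 1953, 1843 and 1859 CPM in wild-type cells (log2 fold change -0.16 ± 0.03, adjusted p = 0.0666). The list's summed level was 4910 to 5016 CPM in K27M libraries and 5706 to 5823 CPM in wild-type libraries. With the GC trend removed, 10 members fell and none rose, where 414 and 305 of all 13060 tested genes did. In these bulk cultures fewer cells of a type and less of its RNA per cell cannot be told apart.

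Further abundant genes that fell were of varied kinds and belong to none of the marker lists. Ndrg2, a growth-restraining gene of astrocytes, had 73.2, 74.2 and 75.7 CPM in K27M cells, against 123, 124 and 123 CPM in wild-type cells (log2 fold change -0.73 ± 0.05, adjusted p = 0.00123). Kcnj10, the glial potassium channel Kir4.1, had 54, 49.2 and 55.1 CPM in K27M cells, against 79.5, 87.2 and 83.9 CPM in wild-type cells (log2 fold change -0.67, adjusted p = 0.00486). Adcyap1r1, the receptor of the neuropeptide PACAP, had 439, 445 and 444 CPM in K27M cells, against 644, 650 and 648 CPM in wild-type cells (log2 fold change -0.55, adjusted p = 0.00123). The tight agreement of replicates let these changes pass even though none reached 2-fold. Ttyh1, a volume-regulated chloride channel of neural stem cells, Pla2g7, a phospholipase that degrades platelet-activating factor, and Mmd2, a membrane receptor-like protein, fell by 0.73, 0.59 and 0.81 on the log2 scale. Hopx, a homeodomain cofactor of radial glia, and Rgma, a guidance molecule, fell by 0.55 and 0.63. Cntn1, a neural adhesion molecule, fell by 0.75, with 89.6, 73.6 and 75.6 CPM in K27M cells, against 152, 112 and 138 CPM in wild-type cells, the widest spread among these genes.

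Hes5 fell while most other genes of the Notch pathway did not pass the test. It had 29.8, 29.9 and 29.7 CPM in K27M cells, against 49.4, 56.1 and 53.5 CPM in wild-type cells (log2 fold change -0.84 ± 0.07, adjusted p = 0.00213). The K27M libraries were nearly identical and all under the lowest wild-type library. Of 20 tested Notch genes, Hes5 alone was called, the median log2 fold change was -0.16, and 15 were below 0. Unadjusted p was below 0.05 for 8 lower genes and 1 higher one, against 9.4% and 7.27% of all tested genes. The feedback gene Nrarp (-0.46, adjusted p = 0.0522), the ligand gene Dll1 (-0.39, adjusted p = 0.0635) and the target Hey1 (-0.28, adjusted p = 0.0746) missed the threshold. The receptor gene Notch1 (-0.04, adjusted p = 0.774) and the target Hes1 (-0.02, adjusted p = 0.905) were close between the genotypes. With the GC trend removed, 7 Notch genes fell and 1 rose, where 414 and 305 of all 13060 tested genes did.

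The neural stem cell identity given by the labels was present in both genotypes. All 20 markers of a neural stem cell list were listed, with summed levels of 8600 to 8905 CPM in K27M libraries and 8609 to 8900 CPM in wild-type libraries. Of them, 1 rose and 3 fell (median log2 fold change -0.09), where 0.567% of all tested genes rose and 1.23% fell. Below 0 were 15 of the 20. Unadjusted p was below 0.05 for 6 lower members and 1 higher one, against 9.4% and 7.27% of all tested genes. Nes, the intermediate filament nestin, had 1599, 1658 and 1626 CPM in K27M cells, against 1427, 1343 and 1428 CPM in wild-type cells (log2 fold change 0.22, adjusted p = 0.0298). Sox2, a stem cell transcription factor, had 280, 290 and 286 CPM in K27M cells, against 323, 344 and 341 CPM in wild-type cells (log2 fold change -0.24, adjusted p = 0.0348). Nes was thus higher and Sox2 lower, each by a small amount and with no overlap. The other members that fell were Hes5 and Id4, an inhibitor of bHLH factors (log2 fold change -0.36, adjusted p = 0.048). The radial glia genes Fabp7 (-0.11, adjusted p = 0.144) and Vim (0.03, adjusted p = 0.787) did not pass.

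Among markers of oligodendrocyte precursors, Gpr17 and Pdgfra fell. Gpr17, a receptor of precursors that are about to differentiate, had 2.15, 1.54 and 1.76 CPM in K27M cells, against 6.76, 6.25 and 5.67 CPM in wild-type cells (log2 fold change -1.76 ± 0.20, adjusted p = 0.00885). Its level was low in both genotypes, and the libraries of the genotypes were well apart. Pdgfra, the receptor of PDGF and the defining marker of these precursors, had 14.9, 18.2 and 16.8 CPM in K27M cells, against 27.6, 25.4 and 22.8 CPM in wild-type cells (log2 fold change -0.60 ± 0.11, adjusted p = 0.0386). It was called in none of the 6 fits that leave out a library. Of 9 tested precursor markers, these 2 fell and none rose, where 1.23% of all tested genes fell. The median was -0.16, and 8 of the 9 were below 0. Unadjusted p was below 0.05 for 4 lower markers and 1 higher one, against 9.4% and 7.27% of all tested genes. The lineage factor Olig2, with 1247, 1352 and 1291 CPM in K27M cells, against 1228, 1396 and 1312 CPM in wild-type cells, was not called (log2 fold change -0.02, adjusted p = 0.899). Of 6 PDGF ligands and receptors, Pdgfra alone was called (median -0.09). Pdgfb, the ligand gene, had 73.8, 88 and 83.6 CPM in K27M cells, against 99.5, 97.5 and 93 CPM in wild-type cells (log2 fold change -0.24, adjusted p = 0.156). The sample titles name PDGFB, and whether reads of an introduced PDGF gene are counted there is not stated.

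Markers of further cell types held 2 called genes, Cnp and Acta2, both lower, where 1.23% of all tested genes fell. Of 7 tested markers of mature oligodendrocytes, Cnp, a myelin enzyme, fell (log2 fold change -0.34, adjusted p = 0.0483), with a median of -0.17, and Cldn11, a tight junction protein of myelin, was -0.94 (adjusted p = 0.0734). Of these 7 markers 5 were below 0, and 2 were lower and none higher at an unadjusted p below 0.05. The shares over all tested genes were 9.4% and 7.27%. None of 22 neuronal markers was called, with a median of -0.05. Only 2 of 12 microglial markers and 4 of 11 endothelial markers had enough counts, and none was called (medians 0.45 and 0.19). Their summed levels were 3.73 to 6.41 CPM in K27M and 4.38 to 5.21 CPM in wild-type libraries for microglia, and 33.8 to 39.3 against 31.5 to 34.0 CPM for endothelium. Of 12 mesenchymal and fibroblast markers 1 fell (median -0.05), which was Acta2, smooth muscle actin, at 0.208, 0.325 and 0.37 CPM in K27M cells, against 1.40, 1.62 and 1.16 CPM in wild-type cells (log2 fold change -2.22, adjusted p = 0.037). At such levels a library holds few counts of the gene.

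**Figure D2:**
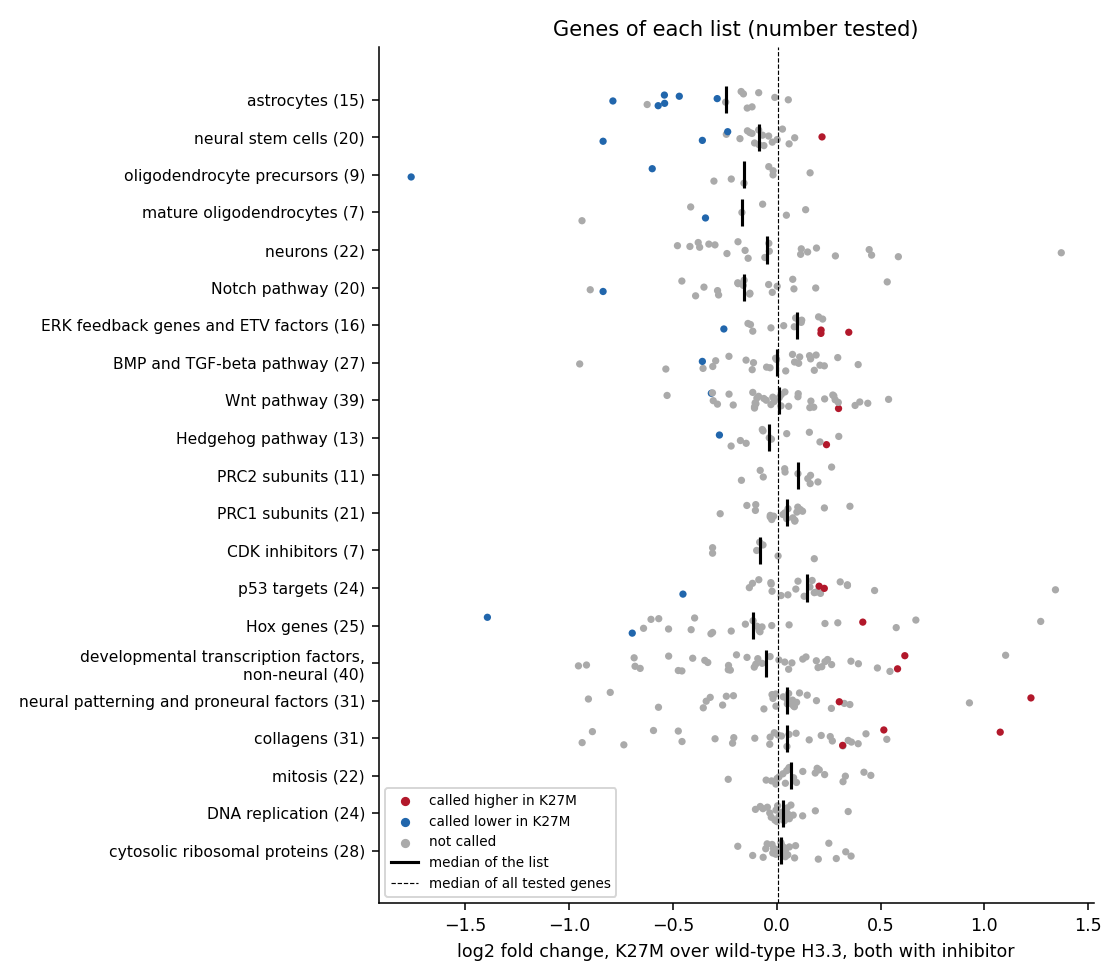
Log2 fold change of K27M over wild-type H3.3, both with inhibitor (horizontal axis), for each tested gene of 21 lists (rows), coloured by call, with the median of each list (thick bar) and of all tested genes (dashed line, 0.01). The astrocyte list lies to the left, with a median of -0.25 and 6 genes called lower, while the lists of ribosomal proteins, replication and mitosis hold no called gene.

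Among genes of any abundance, the largest falls were seen in genes of low level. Vit, vitrin of the extracellular matrix, had 10.2, 9.17 and 9.98 CPM in K27M cells, against 22.3, 22.1 and 23.7 CPM in wild-type cells (log2 fold change -1.21 ± 0.09, adjusted p = 0.00213). Tmem132c, a transmembrane protein gene, had 13.9, 17.3 and 16 CPM in K27M cells, against 33.2, 35.5 and 35 CPM in wild-type cells (log2 fold change -1.14, adjusted p = 0.00232). Both were called in all 6 fits that leave out a library, and neither showed overlap. Dscaml1, a neuronal adhesion molecule, Vgf, a neuropeptide precursor, Prkcq, a protein kinase C, Cxcl12, a chemokine, and Slc30a10, a manganese exporter, fell by 0.94 to 1.01 on the log2 scale. Apcdd1, an inhibitor of Wnt signalling, was more abundant, with 48, 50.1 and 49.6 CPM in K27M cells, against 79.5, 89.4 and 82.4 CPM in wild-type cells (log2 fold change -0.77 ± 0.06, adjusted p = 0.00213).

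The genes that rose did so by less in the abundant range, and none of the 74 was called in all 6 fits that leave out a library. Sel1l3, a membrane protein gene, had 99.3, 100.1 and 104 CPM in K27M cells, against 65.1, 71.9 and 71.9 CPM in wild-type cells (log2 fold change 0.53 ± 0.06, adjusted p = 0.00764). Rgs16, which shortens G protein signalling, had 81.6, 83.7 and 86.5 CPM in K27M cells, against 57.2, 62.3 and 59.1 CPM in wild-type cells (log2 fold change 0.49, adjusted p = 0.00869). Trp53i11, a p53-inducible gene, had 658, 705 and 666 CPM in K27M cells, against 481, 528 and 489 CPM in wild-type cells (log2 fold change 0.44, adjusted p = 0.00785). These 3 genes were higher in every K27M library. Lrp4, a receptor that binds agrin and Wnt inhibitors, Angpt2, a vascular growth factor, and Tle2 and Tle6, members of the Groucho family of corepressors, rose by 0.38, 0.39, 0.47 and 0.43 on the log2 scale. Larger rises were found in genes of low level. Igf2, the imprinted fetal growth factor, had 6.74, 4.62 and 7.02 CPM in K27M cells, against 2.17, 1.40 and 1.73 CPM in wild-type cells (log2 fold change 1.83 ± 0.26, adjusted p = 0.0192). Cpne7, a calcium-dependent membrane binding protein, had 12.9, 14.3 and 12.2 CPM in K27M cells, against 4.21, 4.78 and 6.24 CPM in wild-type cells (log2 fold change 1.37, adjusted p = 0.00869). Adam8, a metalloprotease, had a fitted rise of 1.92 ± 0.36 (adjusted p = 0.0463), and its wild-type values of 0.766, 1.25 and 2.77 CPM were uneven.

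Of 16 tested members of a list of ERK feedback genes and ETV factors, 3 rose and 1 fell, where 0.567% of all tested genes rose and 1.23% fell. The list, which also held Ccnd1, Egr1 and Fos, had a median log2 fold change of 0.10, with 11 members above 0. Dusp4, a phosphatase that switches ERK off, had 98.8, 102 and 98 CPM in K27M cells, against 75.5, 81.7 and 77.3 CPM in wild-type cells (log2 fold change 0.35 ± 0.05, adjusted p = 0.0239). Dusp6, a cytoplasmic ERK phosphatase, had 674, 678 and 684 CPM in K27M cells, against 564, 612 and 579 CPM in wild-type cells (log2 fold change 0.21, adjusted p = 0.0428). Ccnd1, cyclin D1, was the third (log2 fold change 0.21, adjusted p = 0.0346). The immediate early gene Egr1 fell, with 267, 275 and 275 CPM in K27M cells, against 316, 338 and 320 CPM in wild-type cells (log2 fold change -0.25, adjusted p = 0.0306). Members of the list thus moved in both directions, and Spry1 (0.22, adjusted p = 0.0813) and Spry4 (0.20, adjusted p = 0.0671), inhibitors of receptor tyrosine kinase signalling, missed the threshold.

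A few genes of further lists were called, where 0.567% of all tested genes rose and 1.23% fell. Of 39 Wnt genes, the feedback gene Axin2 rose (log2 fold change 0.30, adjusted p = 0.0428) and the ligand Wnt7a fell (-0.31, adjusted p = 0.0428), with a median of 0.01. Of 13 Hedgehog genes, the coreceptor Cdon rose (0.24, adjusted p = 0.0405) and the receptor and target Ptch1 fell (-0.28, adjusted p = 0.0276), with a median of -0.04. Of 27 BMP and TGF-beta genes, Id4 alone was called, and the median was 0.00. Of 24 p53 targets 2 rose, the ubiquitin ligase Mdm2 and the kinase Plk2 (0.23 and 0.20), and the antiproliferative gene Btg2 fell by 0.45 (adjusted p = 0.00432), with a median of 0.15. At an unadjusted p below 0.05, 9 p53 targets were higher and 1 was lower, against 7.27% and 9.4% of all tested genes. With the GC trend removed 6 p53 targets rose and 1 fell, where 305 and 414 of all 13060 tested genes did. Of 32 neuronal receptors and channels 3 fell, Kcnj10, the kainate receptor Grik3 (-0.47) and the nicotinic receptor Chrna4 (-0.46), with a median of 0.01. Of 31 collagens Col6a3, Col9a3 and Col12a1 rose (1.08, 0.52 and 0.32), with a median of 0.05. Of 11 fetal growth genes Igf2 and Hmga2, a chromatin protein of fetal tissue, rose and the RNA binding protein gene Igf2bp1 fell (1.83, 0.36 and -0.42), with a median of -0.13. Of 23 imprinted genes Igf2 and Peg10 rose (median 0.11), and of 19 stress genes the chaperone Hspa5 rose (median 0.10). Of 14 cyclin, CDK, Rb and E2F genes Ccnd1 rose (median 0.08).

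No transcript of the PRC2 machinery passed the test. Ezh2, the drug's target, had 162, 144 and 153 CPM in K27M cells, against 144, 131 and 140 CPM in wild-type cells (log2 fold change 0.15 ± 0.06, adjusted p = 0.264). Of the core subunits, Suz12 had 118, 87 and 101 CPM in K27M cells, against 104, 65 and 88.1 CPM in wild-type cells, and Eed had 46.6, 44.2 and 50.5 CPM in K27M cells, against 41, 43.3 and 38.4 CPM in wild-type cells. The lowest K27M library and the highest wild-type library nearly met for Ezh2, the genotypes overlapped for Suz12, and neither Suz12 (adjusted p = 0.475) nor Eed (adjusted p = 0.239) was called. None of 11 PRC2 subunits, 21 PRC1 subunits or 8 H3K27 demethylases and other modifiers passed, with medians of 0.10, 0.05 and 0.08. Of 11 H3.3 genes and chaperones only H3f3b fell, with 536, 560 and 556 CPM in K27M cells, against 627, 653 and 615 CPM in wild-type cells (log2 fold change -0.20, adjusted p = 0.0489; list median 0.07). It was called in none of the 6 fits that leave out a library, and not with the GC trend removed (-0.27, adjusted p = 0.0861). H3f3b has processed copies in the genome that can share its reads. H3f3a, the other gene of histone H3.3, had 77.8, 75.7 and 83.5 CPM in K27M cells, against 68.9, 88.3 and 85.7 CPM in wild-type cells, which overlapped (log2 fold change -0.04, adjusted p = 0.858). These counts do not separate the K27M codon from the wild-type one and so check no label.

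Cdkn2a, which encodes the cell cycle inhibitor p16Ink4a and the p53 activator p19Arf, was close between the genotypes. It had 83.8, 96.1 and 91.7 CPM in K27M cells, against 85.5, 105 and 98.9 CPM in wild-type cells. The groups overlapped, and the log2 fold change was -0.10 (95% interval -0.29 to 0.10, adjusted p = 0.608). Cdkn2b, its neighbour that encodes p15Ink4b, had 17.1, 16.2 and 15 CPM in K27M cells, against 18.2, 19.6 and 22.1 CPM in wild-type cells, with a log2 fold change of -0.31 (adjusted p = 0.186). Cdkn1a, which encodes p21, had 529, 547 and 537 CPM in K27M cells, against 451, 507 and 464 CPM in wild-type cells (log2 fold change 0.18, adjusted p = 0.124). None of the 7 CDK inhibitor genes passed, with a median of -0.08. Cdkn2b was lower and Cdkn1a higher in every K27M library, and neither passed the test.

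Hox genes, which set positional identity along the body axis, were expressed in both genotypes under the inhibitor. Of 52 Hox genes in the list 30 were listed in the table and 25 were tested, with summed levels of 303 to 318 CPM in K27M libraries and 316 to 361 CPM in wild-type libraries. Of these, 1 rose and 2 fell, where 0.567% of all tested genes rose and 1.23% fell. The median log2 fold change of the tested Hox genes was -0.11, and 18 were below 0. Hoxa5, the most abundant, had 56.9, 60.4 and 55.5 CPM in K27M cells, against 55.4, 65.3 and 62 CPM in wild-type cells (log2 fold change -0.08 ± 0.07, adjusted p = 0.601). Hoxa10 had 13.5, 12.4 and 13.6 CPM in K27M cells, against 17.2, 21.5 and 25.1 CPM in wild-type cells (log2 fold change -0.70, adjusted p = 0.0489). Hoxd9 had 2.36, 2.92 and 1.39 CPM in K27M cells, against 6.25, 5.66 and 5.90 CPM in wild-type cells (log2 fold change -1.39, adjusted p = 0.0413). Hoxb9 was higher, with 21.7, 23 and 21.3 CPM in K27M cells, against 16.3, 16.6 and 16.5 CPM in wild-type cells (log2 fold change 0.41, adjusted p = 0.043). The called Hox genes thus lie in 3 clusters and include both directions, and Hoxa10 was called in 1 and Hoxb9 and Hoxd9 in none of the 6 fits that leave out a library. Every tested gene of the HoxA cluster was below 0. Hoxa7 (-0.52, adjusted p = 0.0628) and Hoxa9 (-0.64, adjusted p = 0.0595) missed the threshold, as did Hoxc13 in the other direction (1.27, adjusted p = 0.0615). With the GC trend removed, 4 Hox genes fell and 2 rose, where 414 and 305 of all 13060 tested genes did.

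**Figure D3:**
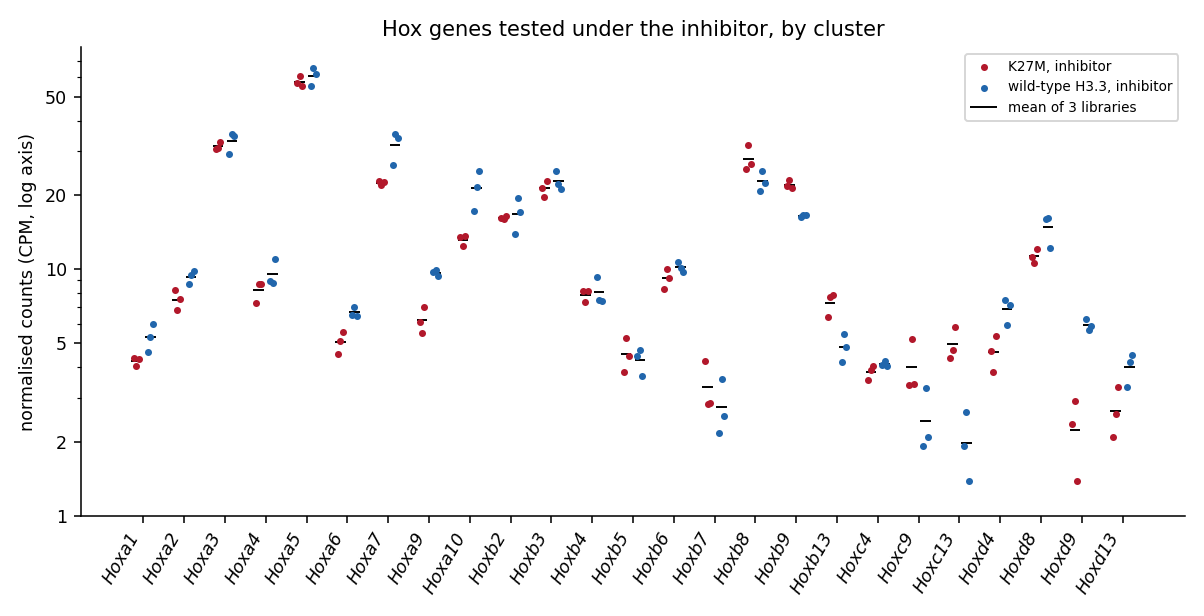
Normalised counts (CPM, log axis) of the 25 tested Hox genes per library, ordered by cluster, K27M inhibitor libraries (red) left of wild-type inhibitor libraries (blue), with bars at means of 3 libraries. Of the 25 genes, 22 were not called, and Hoxa5 is the most abundant in both, at 55.5 to 60.4 CPM in K27M and 55.4 to 65.3 CPM in wild-type cells.

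Developmental transcription factors of tissues outside the nervous system, also typical PRC2 targets, were also expressed in both. Of 40 tested, Foxc1, a mesenchymal forkhead factor, and Tbx3, a T-box factor of limb and heart, rose and none fell, with a median of -0.05. The shares over all tested genes were 0.567% risen and 1.23% fallen. Foxc1 had 27.4, 29.4 and 29.9 CPM in K27M cells, against 17.1, 19.8 and 20.7 CPM in wild-type cells (log2 fold change 0.58, adjusted p = 0.0257). Tbx3 had 20.4, 21 and 19.5 CPM in K27M cells, against 14.4, 13.2 and 12.3 CPM in wild-type cells (log2 fold change 0.62, adjusted p = 0.0221). Both were higher in every K27M library. Of 31 neural patterning and proneural factors Lhx2, a forebrain factor, and Nkx6-1, a ventral patterning factor, rose (0.30 and 1.22) and none fell, with a median of 0.05.

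Many other lists held no called gene, where 1.79% of all tested genes were called, so that a list of such a size would hold few calls at that share. This was so for 22 mitosis genes (median log2 fold change 0.07), 24 replication genes (0.03), 24 cholesterol synthesis genes (0.05), 51 axon guidance genes (0.05), 10 cadherins (0.12), 23 integrins and laminins (0.10), 24 glycolysis and hypoxia genes (0.09), 10 interferon response genes (0.21), 12 MHC class I genes (0.04), 28 ribosomal protein genes (0.02) and 15 housekeeping genes (-0.01). Among the 23 integrins and laminins, 9 were higher and 3 lower at an unadjusted p below 0.05, against 7.27% and 9.4% of all tested genes. With the GC trend removed 6 of them rose and 1 fell, where 305 and 414 of all 13060 tested genes did. Of 16 germline genes 5 were listed and none had enough counts to be tested. The proliferation gene Mki67 had 658, 474 and 460 CPM in K27M cells, against 525, 263 and 407 CPM in wild-type cells (log2 fold change 0.42, adjusted p = 0.414). Its values spread widely within each genotype, and the test did not separate them.

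In DMSO the same pair of genotypes differed far more widely. There, 7897 of 13129 genes (60.1%) were called, 3906 higher and 3991 lower in K27M cells, and the SD of the log2 fold changes over genes was 0.26 under the inhibitor and 0.62 in DMSO. The DMSO libraries were deeper, at 22053599 to 24089044 counts for K27M and 10802442 to 15762228 for wild type, so counts of calls are not on an equal footing. Wild-type DMSO replicate 1 stood apart from replicates 2 and 3 (chi-square per gene 23.6 and 19.6, against 2.97 between replicates 2 and 3 and 2.19 to 9.91 in the other groups). Without it 9279 genes were called in DMSO. Fold changes followed GC content in DMSO (Spearman rho across genes -0.70) more than under the inhibitor (-0.19), and the part of GC content in the DMSO calls was not tested beyond the fit with its trend removed, which called 5757 genes.

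The 952 genes that differed at least 2-fold in DMSO and were tested under the inhibitor had a median absolute log2 fold change of 0.23 under the inhibitor and 1.22 in DMSO, where the DMSO value is the one that chose them. Of them 22 were called under the inhibitor, 16 in the same direction, where 234 of all 13060 tested genes (1.79%) were called. Of the 234 genes called under the inhibitor 224 were tested in DMSO. There, 109 were called in the same direction (48.7% of the 224 and 1.40% of the 7797 genes called in DMSO and tested in both), 56 in the opposite direction and 59 were not called. A test of the difference itself, the interaction of genotype and treatment over all 12 libraries, called 4822 of 13300 genes (36.3%), 2681 positive and 2141 negative. With the GC trend removed it called 2894. Of the 234 genes, 136 had a called difference. The pairs of groups share no library. Every difference called for a gene named in the paragraphs that follow was also called with the GC trend removed and without wild-type DMSO replicate 1.

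**Figure D4:**
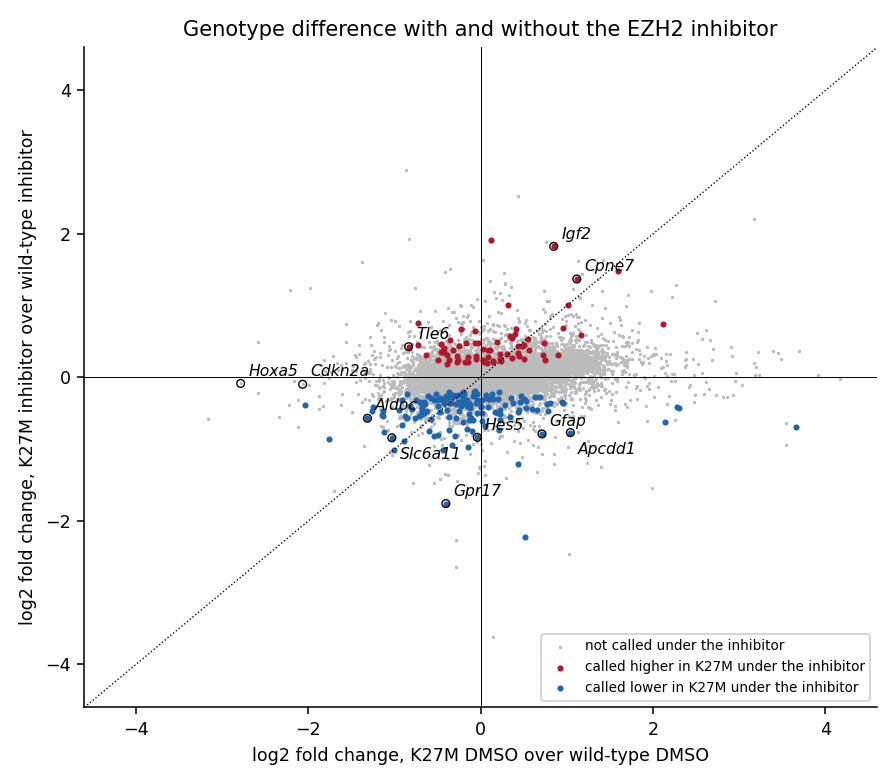
Log2 fold change of K27M over wild type under the inhibitor (vertical axis) against that in DMSO (horizontal axis) for 12693 genes, with 6 genes outside the axes, coloured by the call under the inhibitor; the dotted line marks equal change. The cloud is wider along the DMSO axis, Cdkn2a and Hoxa5 lie near 0 on the inhibitor axis and at -2.07 and -2.79 on the DMSO axis, and Gfap and Apcdd1 lie in the quadrant of opposite signs.

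Cdkn2a and Hoxa5 were among the genes whose genotype difference was called in DMSO and not under the inhibitor. Cdkn2a had 13.7, 13.6 and 14.6 CPM in K27M DMSO cells, against 56.2, 56.9 and 62.7 CPM in wild-type DMSO cells (log2 fold change -2.07). Its genotype difference was 2.01 log2 units higher under the inhibitor than in DMSO (adjusted p = 2.48e-06). Hoxa5 had 1.29, 1.18 and 1.12 CPM in K27M DMSO cells, against 8.44, 8.64 and 7.81 CPM in wild-type DMSO cells (log2 fold change -2.79), and the difference between treatments was 2.74 (adjusted p = 8.81e-07). Neither gene's DMSO groups overlapped. The collagen gene Col11a1 showed the reverse sign in DMSO, with 78.4, 82.1 and 75.9 CPM in K27M cells, against 21.5, 13.1 and 15.2 CPM in wild-type cells (2.24). Under the inhibitor it had 116, 107 and 107 CPM in K27M cells, against 117, 88.3 and 115 CPM in wild-type cells (0.05, difference -2.16, adjusted p = 4.5e-05). Psd, a guanine exchange factor, and Timp4, a metalloprotease inhibitor, were lower in K27M cells in DMSO (-1.34 and -1.22) and were 0.21 and -0.05 under the inhibitor, where neither was called. Gpd1, glycerol phosphate dehydrogenase, was called lower in both treatments, at -0.38 under the inhibitor (adjusted p = 0.046) and -2.04 in DMSO.

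Other genes kept their direction in both treatments. Slc6a11 had 392, 390 and 402 CPM in K27M DMSO cells, against 735, 839 and 848 CPM in wild-type DMSO cells (log2 fold change -1.03), and the difference between treatments was 0.23 (adjusted p = 0.0846, and 0.25 with adjusted p = 0.00892 without wild-type DMSO replicate 1). Aldoc was lower in K27M cells in both, by 0.57 under the inhibitor and 1.31 in DMSO on the log2 scale (difference 0.78, adjusted p = 0.000202). Sel1l3 and Cpne7 rose in both, by 0.53 and 1.37 under the inhibitor and by 0.55 and 1.11 in DMSO.

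A further group was lower under the inhibitor and either higher or not called in DMSO. Of the 35 genes higher there, 28 were also called higher in DMSO with the GC trend removed. Gfap had 68.8, 67.5 and 71.1 CPM in K27M DMSO cells, against 40.1, 43.4 and 43.2 CPM in wild-type DMSO cells (log2 fold change 0.71, difference -1.48, adjusted p = 1.04e-05). Apcdd1 had 33.3, 36.8 and 35.6 CPM in K27M DMSO cells, against 15.3, 18 and 18.1 CPM in wild-type DMSO cells (log2 fold change 1.04, difference -1.93, adjusted p = 9.2e-07). Both were thus higher in K27M cells in DMSO and lower under the inhibitor, without overlap in either. Hes5 had 66.5, 63.8 and 69.8 CPM in K27M DMSO cells, against 59.2, 71.2 and 75.2 CPM in wild-type DMSO cells, which overlapped (log2 fold change -0.04, adjusted p = 0.731), and the difference between treatments was -0.75 (adjusted p = 0.00233). Pdgfra was -0.60 under the inhibitor and 0.22 in DMSO (difference -0.78, adjusted p = 0.00201), and the DMSO value was 0.07 and not called with the GC trend removed. Of the 15 astrocyte markers, 6 fell and none rose under the inhibitor, whereas in DMSO 7 fell and 5 rose, and 9 had a called difference, 4 positive and 5 negative. With the GC trend removed 8 of these markers fell and 4 rose in DMSO, and the difference was called positive in 6 and negative in 4. Over all tested genes 29.8% rose and 30.4% fell in DMSO, and the difference was called positive in 20.2% and negative in 16.1%. After removal of the GC trend 2645 of all 13129 genes rose and 3112 fell in DMSO. The difference was then called positive in 1632 and negative in 1262 of 13300 genes.

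Genes with the opposite pattern, higher under the inhibitor and lower in DMSO, numbered 21, of which 14 were also called lower in DMSO with the GC trend removed. Tle6 had 75.1, 81.1 and 77.3 CPM in K27M cells, against 56.7, 61.6 and 54.9 CPM in wild-type cells under the inhibitor. In DMSO it had 34.7, 34.2 and 34.5 CPM in K27M cells, against 55.2, 67.8 and 61.9 CPM in wild-type cells (log2 fold changes 0.43 and -0.84, difference 1.27, adjusted p = 4.11e-05). Dusp4 had 22.8, 21.3 and 24.4 CPM in K27M DMSO cells, against 27.9, 31.2 and 33 CPM in wild-type DMSO cells (log2 fold change -0.43, difference 0.81, adjusted p = 0.000523). Over all tested genes 29.8% rose and 30.4% fell in DMSO, and the difference was called positive in 20.2% and negative in 16.1%. Of the 16 genes of the ERK feedback and ETV list, 3 rose and 1 fell under the inhibitor and 2 rose and 13 fell in DMSO. The difference was called positive in 12 of them and negative in 2. With the GC trend removed 1 rose and 11 fell in DMSO, and the difference was called positive in 10 and negative in 1. After that removal 2645 of all 13129 genes rose and 3112 fell in DMSO. The difference was then called positive in 1632 and negative in 1262 of 13300 genes. For the 11 PRC2 subunits the counts were none under the inhibitor and 8 higher in DMSO, with 4 differences called, all negative. With the GC trend removed 5 were higher and 1 lower in DMSO, and 2 differences were called, both negative.

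**Figure D5:**
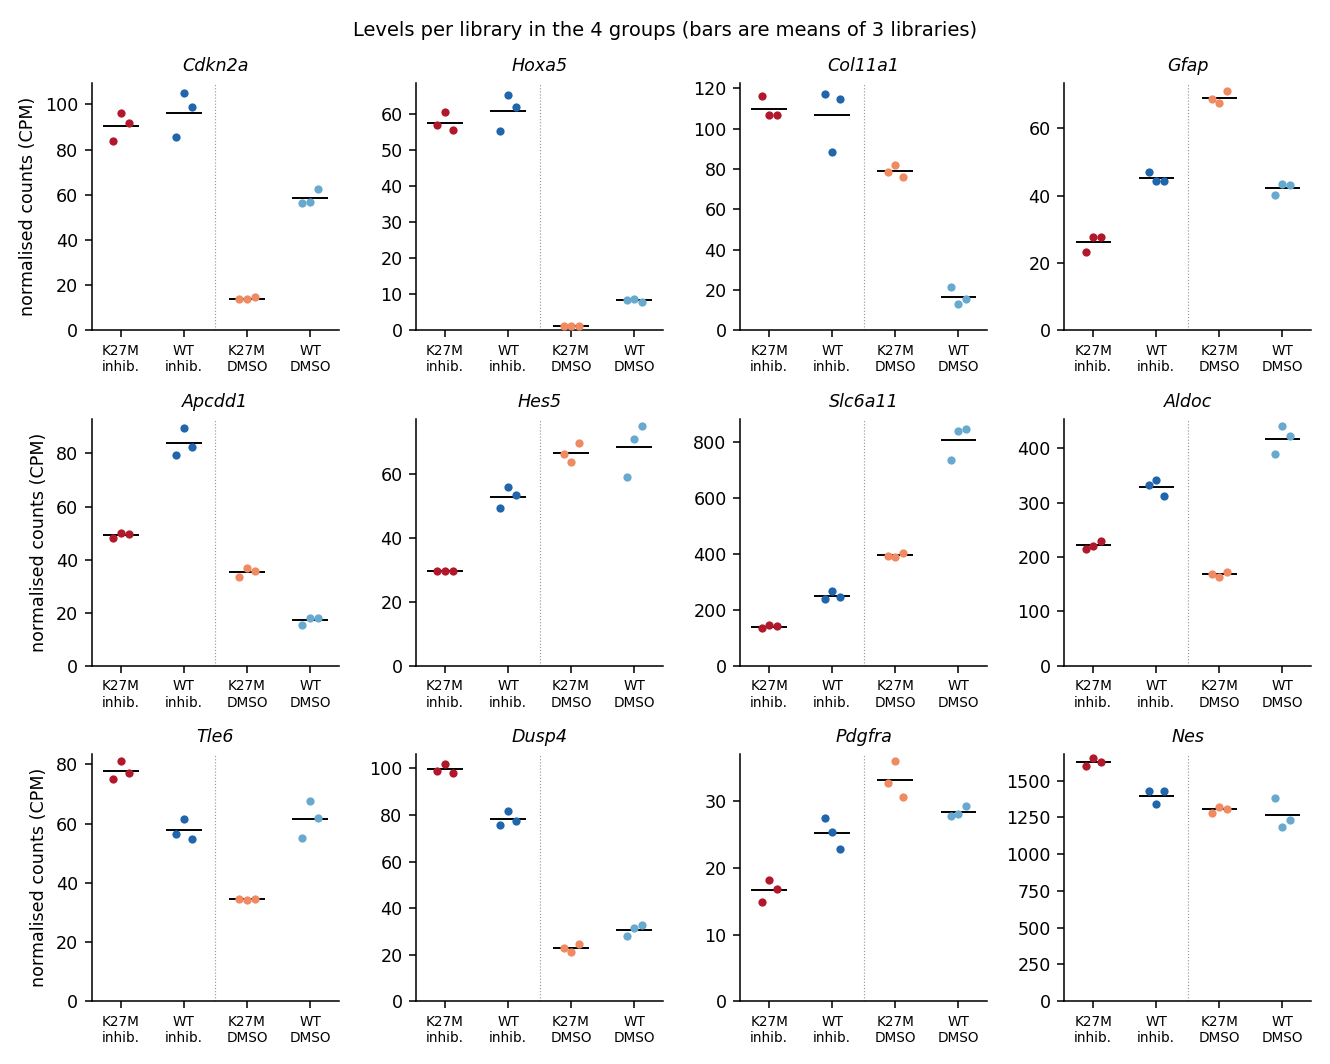
Normalised counts (CPM, linear axes from 0) per library of 12 genes in K27M and wild-type cells under the inhibitor (left of the dotted line) and in DMSO (right of it), normalised within each treatment; bars are means of 3 libraries. Cdkn2a, Hoxa5 and Col11a1 differ between genotypes in DMSO and overlap under the inhibitor, Slc6a11 and Aldoc are lower in K27M cells in both, and Gfap, Apcdd1, Tle6 and Dusp4 change order between treatments.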

How the data were processed

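RNA of 12 libraries in 4 groups of 3 was measured by RNA-seq of polyadenylated RNA, per the labels' protocols. Per the submitters' processing notes, kallisto and sleuth were used with GRCm38 (mm10); no source used here states versions, annotation or the strand setting, so reads of overlapping antisense genes cannot be told apart. Per the file headers, the authors deposited estimated counts per transcript and library. Their p-values, q-values and effects were not used. The deposited estimated counts are divided by 1 size factor per library and table, as found from the values. The factor was taken from the step between repeated low values and undone, after which values of a library agreed between tables within a relative 1e-10, and 45.5 to 57.8% of low values were whole (tolerance 0.01). Each listed transcript reached 5 counts in 3 or more libraries of its table. Transcripts with no gene name (0.486 to 0.553% of counts) were left out.

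Counts were summed per gene, rounded and tested with edgeR 4.0.16 in R 4.3.3 (filterByExpr, TMM, two-sided quasi-likelihood test, Benjamini-Hochberg adjustment, call at an adjusted p below 0.05). Each genotype pair was fitted on its own 6 libraries. The difference between treatments was the interaction term over 12 libraries, on the 37407 of 44294 transcripts with a value in all of them. SE is the absolute log2 fold change divided by the square root of F. Levels are normalised within each pair. The procedure was tested on simulated data. Alternatives were DESeq2 1.42.0, its size factors in edgeR, no filter, the deposited values, a replicate block, removal of the GC trend, glmTreat (limma 3.58.1 is loaded with edgeR) and leaving out each library.

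The rule for named genes took 9 fixed ones (the genes of H3.3, the PRC2 core subunits Eed, Suz12 and Ezh2, Cdkn1a, Cdkn2a, Cdkn2b and Pdgfra), genes among the 15 largest called rises and falls at or above the median abundance, the 10 largest at any abundance, up to 6 called and 2 abundant uncalled members of each list, and the 8 largest differences between treatments in each direction. Named outside this rule, after their values were seen, are Lrrn1, Nrarp, Dll1, Hey1, Hes1, Spry4, Cldn11, Hoxa7, Hoxa9, Hoxc13 and members named in counts of 5 or fewer. Members and lists were chosen with earlier results of these data known. Annotation was GENCODE M21 and RefSeq windows on GRCm38.p6.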

Additional observations from a re-analysis of the deposited data

Results flagged for a closer look

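The results below were taken up because the genotype difference under the inhibitor differed from that in DMSO by the interaction test over 12 libraries. They are the genes named above that were called in opposite directions in the 2 treatments or that had the largest differences. Both choices rest on the same libraries as the test of the difference. Values are log2 fold changes of K27M over wild-type H3.3 under the inhibitor minus those in DMSO. All of these differences were also called with the GC trend removed and without wild-type DMSO replicate 1. The opposite call in DMSO itself ended with the GC trend removed for 8 of the genes below: the DMSO log2 fold change became 0.07 for Pdgfra, 0.25 for Id4, -0.16 for Tle2, -0.09 for Ccnd1, -0.05 for Axin2, 0.03 for Trp53i11, 0.03 for Mbd6 and -0.42 for Stard10.

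Lower in K27M cells under the inhibitor and higher in DMSO were Gfap (-1.48), Apcdd1 (-1.93), Vit (-1.61), Ttyh1 (-0.90), Adcyap1r1 (-0.85), Btg2 (-0.64), Pdgfra (-0.78), Id4 (-1.13), Ptch1 (-0.87), Hoxa10 (-3.59) and Igf2bp1 (-2.69). Hoxa10 had 1.79, 0.656 and 1.62 CPM in K27M DMSO libraries, against 0.152, 0.0919 and 0.0635 CPM in wild-type DMSO libraries, so its value in DMSO rests on few counts.

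Higher in K27M cells under the inhibitor and lower in DMSO were Tle6 (1.27), Tle2 (1.02), Dusp4 (0.81), Dusp6 (0.53), Ccnd1 (0.41), Axin2 (0.61), Trp53i11 (0.73), Hmga2 (0.84), the extracellular protease Adamts14 (0.89), the vesicle GTPase Rab3b (0.88), the methyl-CpG-binding domain protein Mbd6 (0.74) and the lipid transfer protein Stard10 (2.02).

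Genes with large differences that were not called under the inhibitor, or were called in the same direction in both treatments, fall on both sides. Positive differences were found for Cdkn2a (2.01), Gpd1 (1.69), Psd (1.59), the transferrin gene Trf (1.42), the pleckstrin homology domain gene Phlda1 (1.22) and Timp4 (1.20). Negative ones were found for the protocadherin Pcdh17 (-2.19), Col11a1 (-2.16), Fndc3c1 (-1.99), the adhesion molecule Alcam (-1.67), Anks1b (-1.65), the kinase Rps6ka6 (-1.57) and the kinase Pak3 (-1.55). Entpd5, a nucleotidase, gave 3.04. The separate fits gave Entpd5 0.05 under the inhibitor and -0.39 in DMSO, and the difference was 0.43 with transcripts that lack a value in some libraries set to 0, an alternative chosen after seeing the data.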

How the results depend on the processing

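The 234 calls became 219 with DESeq2's size factors, 259 with DESeq2 (199 of the 234 among them), 209 without the filter and 217 with the deposited values. They became 719 (305 higher, 414 lower) with the GC trend removed and 765 (373 and 392) with the replicate block and GC removal together, against 74 and 160. Leaving out a library gave 17 to 195. The 16 genes of at least 2-fold became 25 with the GC trend removed and 4 to 17 without a library. Against a fold of 1.5, glmTreat called 0 genes, with 100 at an unadjusted p below 0.05 and a lowest adjusted p of 0.149. The 4822 differences between treatments became 2894 with the GC trend removed, 3108 with unlisted transcripts at 0 and GC removal, and 3393 to 6975 without a library; the highest was without wild-type DMSO replicate 1. The DMSO calls ranged from 5031 to 9279 without a library. The cause of these changes was not tested. The labels link K27M and wild-type libraries only by a replicate number. Deviations from the group mean correlated at 0.15, 0.13 and -0.02 between same-numbered libraries and at -0.17 to 0.04 between the others. Their Spearman rho with GC content was -0.50 and -0.48 in K27M and wild-type replicate 1. It was 0.47 and 0.55 in replicate 2 and 0.09 and -0.18 in replicate 3. Whether equal numbers mark a shared batch was not tested. The replicate block gave 539 calls (249 higher, 290 lower, 233 of the 234 among them). Counting each gene in each alternative fit as 1 value, 13 values changed sign, all uncalled and near 0. They belong to H3f3a, Olig2, Pcdh17, Col11a1, Alcam and Pak3 only. Leaving out a library gave ranges of -0.142 to 0.0272 for H3f3a, -0.0642 to 0.0292 for Olig2, -0.00335 to 0.241 for Pcdh17, -0.0768 to 0.124 for Col11a1, -0.0779 to 0.150 for Alcam and -0.0845 to 0.216 for Pak3. With the GC trend removed Alcam was -0.00844 and Pak3 -4.9e-05, and with the replicate block and GC removal Alcam was -0.0135 and Pak3 -0.00703. With 3 libraries a group, changes under 1.5-fold in genes of few counts are not well resolved.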

Other observations

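Median fold changes under the inhibitor were near 0 on most chromosomes and slightly above 0 on chromosomes 10 and 1. On chromosome 10 the median log2 fold change of K27M over wild type was 0.07 over 638 genes, 66.3% of them were above 0, and 13 of 16 called genes were higher in K27M cells, where 74 of the 234 called genes were higher over all chromosomes. The gene lists above were read without regard to chromosome. Genes named there as rising can therefore be among these 13, and whether their rises are separate results was not tested. The medians of the 3 K27M libraries against the wild-type mean were 0.05, 0.07 and 0.09 on chromosome 10. In DMSO the chromosome 10 median was -0.00, and with the GC trend removed the inhibitor value was 0.06. On chromosome 1 the median was 0.06 over 753 genes, and 0.05 with the GC trend removed.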
